A study of Mus musculus with 32 samples.

Results

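The 6 genes described here mark the neurons of the inner retina, the layers between the photoreceptors and the optic nerve. They are Calb1 for horizontal cells, Pax6 and Gad1 for amacrine cells, Pcp2 and Scgn for bipolar cells and Rbpms for ganglion cells. Every array probe annotated to 1 of these symbols was taken, which gave 9 probes of 20794 and 6 genes of 9030 named on the array. Gad1, Scgn and Rbpms had 2 probes each, and the other members had 1.

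The arrays compared eye, brain and heart RNA of sighted C3H mice, which the study design calls the C3H seh line, with RNA of C3H.pde6b- control mice of the same organ. Control C3H mice carry a mutation of Pde6b, the rod phosphodiesterase gene, and lose their rods early in life. On each array 1 sighted sample was set against pooled RNA of 6 control males. The same control mice gave brain and heart pools, and different mice gave the eye pool. The design text gives the sighted animals as males, and the labels give no age.

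There were 12 arrays for eye, 12 for brain and 8 for heart, with sighted RNA in Cy5 on some and in Cy3 on the others. A value is a log2 ratio turned to sighted over control, so it is above 0 where RNA was higher in sighted mice. A replicate is the mean of 2 consecutively numbered arrays of opposite dye, so that eye had 6 replicates, brain 6 and heart 4. Since no label ties an array to an animal, p-values measure only how far these samples spread, and part of that may be technical. The control of an organ is 1 pool, and the spread between control mice is left out of every test.

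The direction of the ratio is not stated and was read off the rod genes in eye. The median of the 6 rod genes measured lay between 4.84 and 5.57 as deposited with sighted RNA in Cy5. With sighted RNA in Cy3 it lay between -4.83 and -4.06. No probe was named Pde6b, so the mutated gene has no value here. A ratio carries no level, so the labelled tissue could not be checked against its markers. Missing values made up 1.62 to 5.10% of an eye array, 1.01 to 5.05% of a brain array and 5.96 to 61.6% of a heart array. The number of arrays limits the precision.

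In the retina, photoreceptors pass their signal to bipolar cells, which pass it to ganglion cells, whose axons form the optic nerve. Horizontal cells and amacrine cells modify this path from the side, in the outer and inner synaptic layer. In mice with Pde6b mutations the rods die first and the cones follow, while the inner neurons outlast them for long and change their dendrites and connections.

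Promoter sequence from RefSeq was found for 4 of the 6 members, Pax6, Gad1, Pcp2 and Scgn, with 8 start sites. Calb1 and Rbpms had no entry. The 120 bases before the first start site are shown for Pax6, the member whose readings differed most between dyes, and for Pcp2, a bipolar marker, because both windows lie wholly before the annotated gene. Capitals mark matches, on either strand, to 1 of 6 short motifs searched, which are spelled out after the sequences. No match overlapped another.

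Pax6, chr2:105668776-105668895, plus strand, GRCm38.p6: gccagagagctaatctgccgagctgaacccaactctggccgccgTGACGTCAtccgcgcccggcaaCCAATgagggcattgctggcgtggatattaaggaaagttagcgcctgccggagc

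Pcp2, chr8:3625548-3625667, minus strand, GRCm38.p6: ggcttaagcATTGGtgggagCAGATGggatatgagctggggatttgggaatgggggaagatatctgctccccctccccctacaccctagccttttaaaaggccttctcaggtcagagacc

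The Pax6 window held TGACGTCA, the cyclic AMP response element, 76 bases before the start, and CCAAT 54 bases before it. The Pcp2 window held CCAAT, read on the other strand, 111 bases before the start, and the E-box CANNTG 100 bases before it. Of all 32851 promoter windows of this length, 1.24% held TGACGTCA, 21.3% CCAAT, 40.2% CANNTG, 6.34% TATAAA, 26.5% GGGCGG and 2.84% TAATCC, and these are the 6 motifs searched. A match describes the letters and is not evidence of binding.

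In eye, 4 of the 6 members differed between sighted and control mice, 1 higher and 3 lower. Calb1 rose in sighted eyes, while Pax6, Gad1 and Rbpms fell. The bipolar markers Pcp2 and Scgn did not pass the test. All these differences were small, between a log2 ratio of -0.48 and 0.26, against a median of 4.84 for the rod genes. Of 15874 genes tested with limma, 26.8% were called at an adjusted p of 0.05, 15.9% higher and 11.0% lower, and the median of all genes was 0.03. The retina was not separated from the rest of the eye. Each value compares RNA of mixed cell types, so cell number, RNA per cell and the RNA share of other cells cannot be told apart.

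Calb1 encodes calbindin, a calcium buffer that fills horizontal cells and is also found in some amacrine and ganglion cells. Its 6 eye replicates had a lowest value of 0.0475, a median of 0.28 and a highest value of 0.48. All 6 lay above 0, with replicate 6 closest to it. The mean was 0.26 ± 0.17 (SD, n = 6), or 1.20-fold higher in sighted eyes, with an adjusted p = 0.0316 (limma). The call was lost without replicate 1, 3 or 5, at adjusted p = 0.0907, 0.0853 and 0.0899.

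Pax6 encodes a transcription factor that eye formation requires, and in the adult retina it stays on in amacrine, ganglion and horizontal cells. Lens and cornea also express it. The lowest of its 6 eye replicates was -0.54, the median -0.44 and the highest 0.048. Replicate 3 alone lay above 0. The mean was -0.34 ± 0.23 (SD, n = 6), or 1.27-fold lower in sighted eyes, with an adjusted p = 0.0231 (limma). The call was lost without replicate 2, 4, 5 or 6, at adjusted p = 0.0555, 0.0672, 0.0698 and 0.0607.

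Gad1 encodes the larger form of glutamate decarboxylase, which makes the inhibitory transmitter GABA in many amacrine cells and in horizontal cells. Its eye replicates had a lowest value of -0.51, a median of -0.34 and a highest value of 0.006. Replicate 6 lay at about 0 and the other 5 below. The mean was -0.31 ± 0.18 (SD, n = 6), or 1.24-fold lower in sighted eyes, with an adjusted p = 0.0188 (limma). The call was lost without replicate 1, 4 or 5, at adjusted p = 0.0567, 0.0532 and 0.0591.

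Pcp2 encodes a regulator of G protein signalling that is restricted to bipolar cells in the retina and to Purkinje cells in the cerebellum. Its eye replicates had a lowest value of -0.046, a median of 0.16 and a highest value of 0.41, with replicate 4 alone below 0. The mean of 0.17 ± 0.16 (SD, n = 6) had an adjusted p = 0.122 (limma), and its 95% interval ran from 0.0045 to 0.34 before adjustment. Scgn encodes secretagogin, a calcium sensor protein of cone bipolar cells in mouse. Its eye replicates had a lowest value of -0.34, a median of -0.086 and a highest value of 0.098, on both sides of 0. The mean was -0.11 ± 0.17 (SD, n = 6), with an adjusted p = 0.328 (limma) and a 95% interval of -0.28 to 0.061.

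Rbpms encodes an RNA-binding protein that marks nearly every ganglion cell of the rodent retina. It is also made in smooth muscle and heart muscle. Its eye replicates had a lowest value of -0.97, a median of -0.43 and a highest value of -0.24. All 6 lay below 0, and replicate 2 lay well below the others. The mean was -0.48 ± 0.25 (SD, n = 6), or 1.40-fold lower in sighted eyes, with an adjusted p = 0.00651 (limma). It stayed called without each replicate in turn, with adjusted p between 0.0042 and 0.0208. Without replicate 2 the mean was -0.39.

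**Figure D1:**
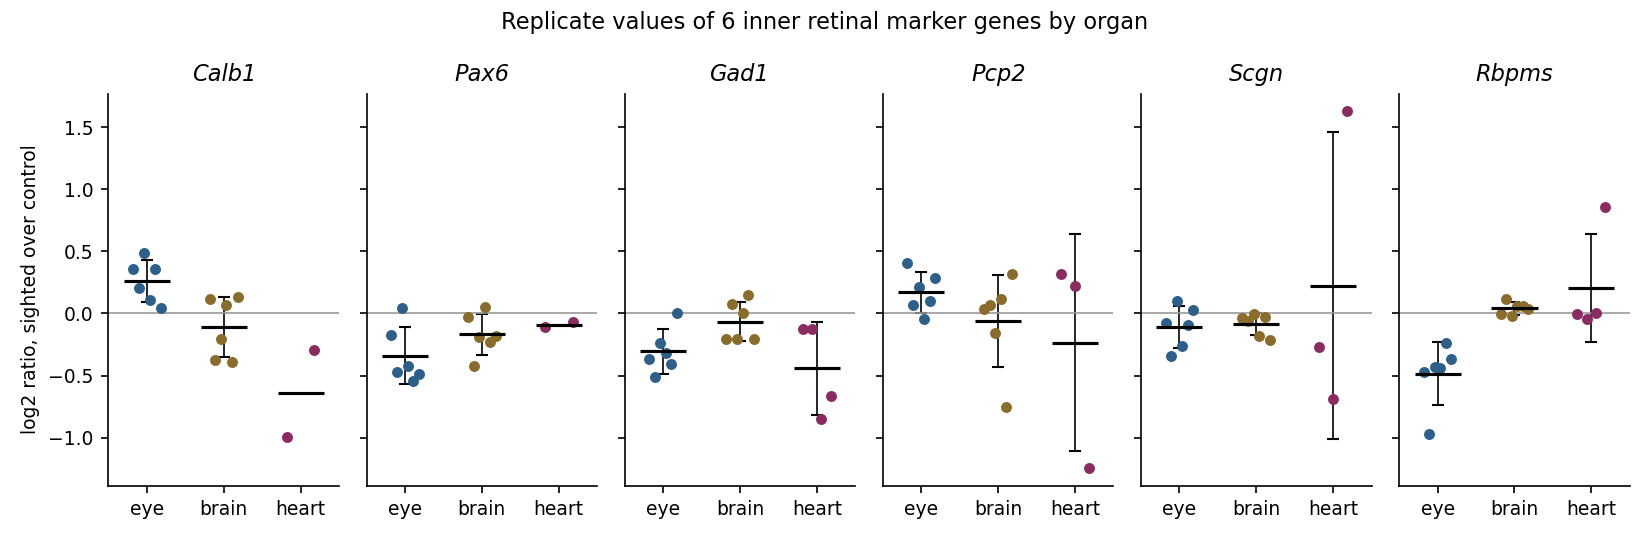
Each point is 1 replicate, with the log2 ratio of sighted over control RNA on the vertical axis and eye, brain and heart side by side for each gene; bars are means and error bars are SDs, drawn for 3 or more replicates. All 6 eye replicates lie above 0 for Calb1 and below 0 for Rbpms, brain means lie between -0.17 and 0.041, and heart replicates of Pcp2 and Scgn spread over the widest range.

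Eye array medians as deposited lay between -0.061 and 0.535, so the arrays were not all centred. Of the 6 members, 4 had orientation means of opposite sign in eye, namely Calb1, Pax6, Pcp2 and Scgn, against 65.1% of all genes. Calb1 averaged 0.53 with sighted RNA in Cy5 and -0.011 with sighted RNA in Cy3. Pcp2 averaged 0.48 in Cy5 and -0.14 in Cy3. Scgn averaged 0.056 in Cy5 and -0.27 in Cy3. For Gad1 both orientations were below 0 as a mean of its probes, at -0.058 in Cy5 and -0.55 in Cy3. Gad1 probe 18583 on its own averaged 0.30 in Cy5, above 0 on 6 of 6 arrays. In Cy3 this probe averaged -0.35, below 0 on 6 of 6. Gad1 probe 10220 averaged -0.41 in Cy5 and -0.755 in Cy3.

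Pax6 had the widest gap. Its 6 arrays with sighted RNA in Cy5 had a lowest value of 0.094, a median of 0.28 and a highest value of 0.60. Its 6 arrays with sighted RNA in Cy3 had a lowest value of -1.25, a median of -1.07 and a highest value of -0.45. All arrays of the first kind lay above 0 and all of the second kind below, with no overlap. Over the Cy5 arrays alone, as deposited, Pax6 was called higher, at 0.32 with an adjusted p = 0.0308 (limma). Its call in eye thus reversed with the dye on arrays that were not centred. On centred arrays Pax6 averaged 0.046 in Cy5, with 3 of 6 arrays above 0. The Cy5 arrays alone were not tested after centring.

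Rbpms was below 0 on all 12 eye arrays as a mean of its probes. With sighted RNA in Cy5 it had a lowest value of -0.52, a median of -0.36 and a highest value of -0.12. With sighted RNA in Cy3 it had a lowest value of -1.42, a median of -0.52 and a highest value of -0.35. The orientations overlapped, and both lay on the side of lower RNA in sighted eyes. Rbpms probe 616 averaged -0.56 in Cy5 and -0.865 in Cy3. Rbpms probe 10999 averaged -0.091 in Cy5, with 2 of 6 arrays above 0, and -0.42 in Cy3.

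A dye term, positive where Cy5 read brighter whichever RNA it carried, was fitted to all 12 eye arrays. It was called for 4 of the 6 members, against 54.2% of 16181 genes, with a median of 0.25 over all genes. Pax6 had a dye term of 0.66, with an adjusted p = 0.000567 (limma). Pcp2 had 0.31, Calb1 0.27 and Gad1 0.25, close to the median of all genes, with adjusted p = 0.00648, 0.0138 and 0.0221. Scgn had 0.16 and Rbpms 0.16, at adjusted p = 0.0643 and 0.134.

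Each array was also centred on its own median. In eye, the orientation means then had the same sign for 5 of the 6 members. Pax6 averaged 0.046 in Cy5 and -0.80 in Cy3. Of all genes, 33.3% had orientation means of opposite sign after centring. Calb1 averaged 0.25 in Cy5 and 0.20 in Cy3, and Gad1 averaged -0.34 in both. Rbpms averaged -0.61 in Cy5 and -0.43 in Cy3. Centring called 2537 genes higher and 2410 lower in eye, beside 2520 and 1739 as deposited. The dye term of Pax6 was 0.42 on centred arrays and remained called, at an adjusted p = 0.0074 (limma), and those of the other 5 members were not called.

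**Figure D2:**
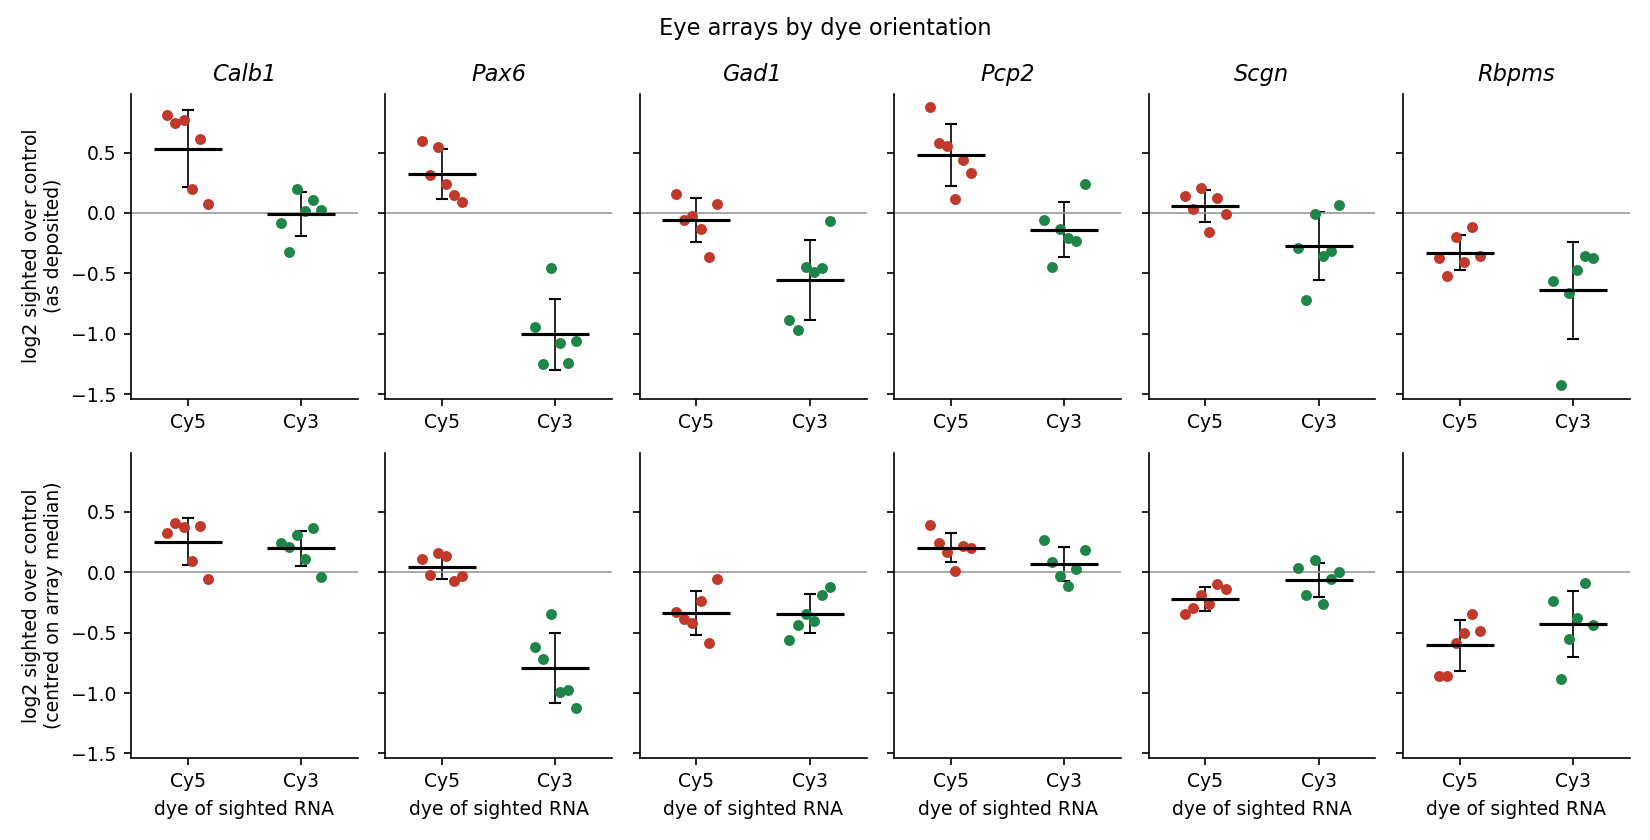
Points are single eye arrays, with log2 sighted over control on the vertical axis and the dye of the sighted RNA on the horizontal axis, as deposited in the upper row and centred on each array's median in the lower row; bars and error bars are means and SDs of 6 arrays. Centring brings both orientations together for the members except Pax6, which keeps 0.046 in Cy5 against -0.80 in Cy3, and all Rbpms points lie below 0.

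The genes with 2 probes allow a second reading of the same RNA. In eye, the Gad1 probes were unlike each other. Probe 10220 had a lowest replicate of -0.83, a median of -0.67 and a highest of -0.054, and a mean of -0.58 ± 0.28 (SD, n = 6) with an adjusted p = 0.00407 over all probes (limma). Probe 18583 had a lowest replicate of -0.27, a median of 0.038 and a highest of 0.0995, and a mean of -0.03 ± 0.14 (SD, n = 6) with an adjusted p = 0.82 (limma). The call of Gad1 in eye thus rests on probe 10220, which was lower than probe 18583 in 6 of 6 replicates.

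The first Gad1 probe minus the second was -0.56 ± 0.27 (SD, n = 6), with p = 0.0312 in a two-sided exact sign-flip permutation test, the smallest p that 6 replicates allow. Adjusted over the 9 gene and organ comparisons it was 0.14 in this exact test. Among 1503 genes with 2 probes in eye the median absolute difference was 0.154, and 9.38% differed by more than Gad1.

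Rbpms was lower with both probes, by unequal amounts. Probe 616 had a lowest eye replicate of -1.40, a median of -0.61 and a highest of -0.43, and a mean of -0.71 ± 0.36 (SD, n = 6) with an adjusted p = 0.00404 (limma). Probe 10999 had a lowest of -0.55, a median of -0.22 and a highest of -0.027, and a mean of -0.25 ± 0.20 (SD, n = 6) with an adjusted p = 0.0551 (limma). All 6 replicates lay below 0 with either probe, but the second did not pass the threshold on its own. The difference of -0.46 ± 0.29 (SD, n = 6) had p = 0.0312 in the exact sign-flip permutation test, or 0.14 after adjustment, and 12.4% of genes with 2 probes differed by more. The Scgn probes gave -0.12 and -0.099, and 93.5% of such genes differed by more than these. Which transcript forms the probes detect is not given in the sources used here.

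**Figure D3:**
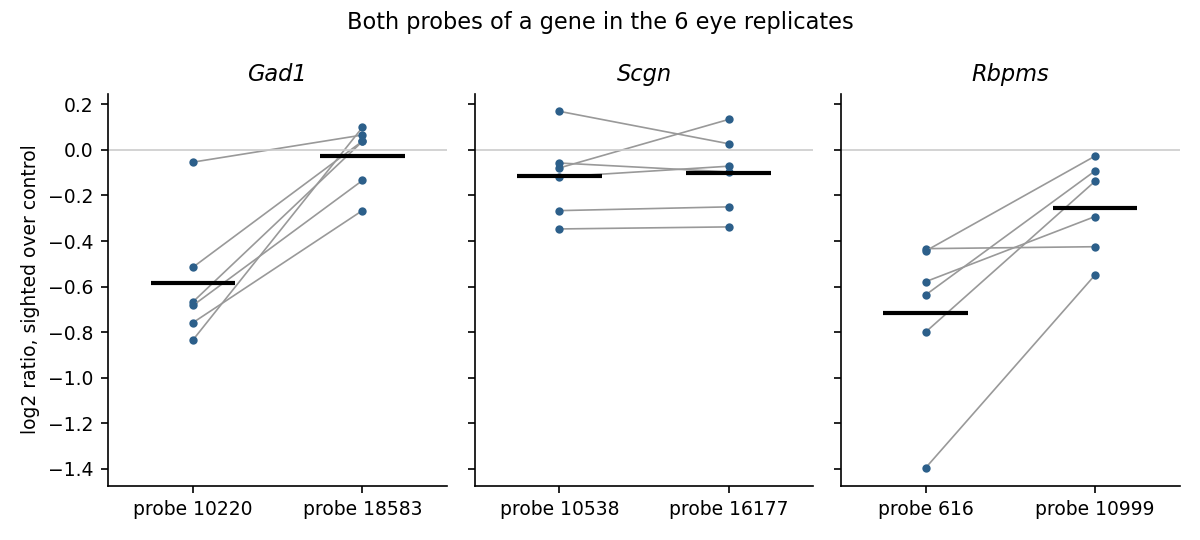
Each line joins both probes of a gene in 1 eye replicate, with log2 sighted over control on the vertical axis and bars at the means. Gad1 probe 10220 averages -0.58 against -0.03 for probe 18583, Rbpms probe 616 averages -0.71 against -0.25 for probe 10999, and the Scgn probes lie at the same height.

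In brain, none of the 6 members was called, and 1 of 16112 genes was, or 0.00621%, with 657 genes at an unadjusted p under 0.05 (limma). Calb1, strong in Purkinje cells and other brain neurons, had a lowest brain replicate of -0.39, a median of -0.068 and a highest of 0.13, with 3 on each side of 0. Pax6 had -0.42, -0.19 and 0.048 as lowest, median and highest, with 5 of 6 replicates lower in sighted brains, a mean of -0.17 ± 0.17 (SD, n = 6), an unadjusted p = 0.0494 and an adjusted p = 0.959 (limma). No other member had an unadjusted p under 0.05 in brain. Gad1, a marker of inhibitory neurons throughout the brain, averaged -0.065 ± 0.16 (SD, n = 6), with 3 replicates on each side of 0. Pcp2 averaged -0.062 ± 0.37 (SD, n = 6), and replicate 5 at -0.75 was far below the other 5. Without replicate 5 the mean turned to 0.076, with an adjusted p = 0.954 (limma).

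Scgn averaged -0.086 ± 0.089 (SD, n = 6) in brain, below 0 in 6 of 6 replicates, with an adjusted p = 0.959 (limma). Its 2 probes were on both sides of 0 in single replicates, so this narrow spread is that of their mean. Rbpms averaged 0.041 ± 0.050 (SD, n = 6), the narrowest spread of the members in brain. By dye, Rbpms was below 0 on all 6 brain arrays with sighted RNA in Cy5, at a mean of -0.18, and above 0 on all 6 with sighted RNA in Cy3, at a mean of 0.26.

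The brain dye term was called for Pax6 at 0.47, with an adjusted p = 0.00101 (limma), and for Rbpms at -0.22, with an adjusted p = 0.00765 (limma). Of 16434 genes, 22.2% had a called dye term in brain. Of the 6 members, 3 had brain orientation means of opposite sign, Pax6, Scgn and Rbpms, against 71.7% of all genes. Pax6 averaged 0.30 in Cy5 and -0.64 in Cy3 in brain, the same order as in eye. The Pax6 probe therefore read brighter in Cy5 in both organs, whereas the Rbpms probes did so in neither by a called amount. Gad1 probe 18583 on its own averaged 0.33 in Cy5 and -0.27 in Cy3 in brain, above 0 on 6 of 6 and below 0 on 6 of 6 arrays. On centred brain arrays 4 of the 6 members had orientation means of opposite sign, against 73.4% of all genes. Rbpms then averaged -0.23 in Cy5 and 0.315 in Cy3. The dye terms of Pax6 and Rbpms remained called after centring, at 0.41 and -0.27 with adjusted p = 0.0026 and 0.00309 (limma). Those of the other members were not called.

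In heart, 4 of the 6 members had enough replicates to be tested, and none was called. Of 12755 genes 0% were called by limma, with 1042 at an unadjusted p under 0.05. Gad1 had -0.12, -0.12, -0.85 and -0.66 in replicates 1 to 4, all below 0, a mean of -0.44 ± 0.37 (SD, n = 4) and an adjusted p = 0.568 (limma). Its replicate 4 rests on probe 18583 alone, and its replicate 3 includes a reading of -2.23 from probe 10220 on 1 array, while probe 18583 gave -0.42 in that replicate. Rbpms had -0.0055, -0.042, 0.007 and 0.86, so 3 replicates lay at about 0 and replicate 4 set the mean of 0.20 ± 0.44 (SD, n = 4). Replicate 4 includes the array with 61.6% of its values missing, which read 0.29 for Rbpms. The other array of replicate 4, with 10.1% missing, read 1.42.

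Pcp2 had 0.32, 0.23 and -1.24 in heart replicates 1 to 3 and no value in replicate 4. Scgn had -0.27, -0.69 and 1.63 in replicates 1 to 3, and the last rests on probe 16177 alone. These replicates lay far apart, with SDs of 0.88 for Pcp2 and 1.23 for Scgn. In replicate 3, heart array 5 alone read -2.83 for Pcp2 and 3.47 for Scgn. The same array gave the reading of -2.23 from Gad1 probe 10220. Calb1 had -0.99 and -0.29 in heart replicates 1 and 2, and Pax6 had -0.11 and -0.07 in replicates 2 and 3, too few to test. In the dye fit of the single arrays Pax6 had a dye term of 0.71 in heart, the sign it had in eye and brain, with an adjusted p = 0.197 (limma). Of 14305 heart genes 0 had a called dye term, with 2170 at an unadjusted p under 0.05 (limma). Of the 4 members tested, Rbpms alone had heart orientation means of opposite sign, against 55.2% of all genes.

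Whether the response differed between organs was tested directly, in 1 fit of all organs. Rbpms was called in eye minus brain, against 12.5% of 12492 genes, and in eye minus heart, against 22.8%. Eye minus brain was -0.52, with means of -0.48 in eye and 0.041 in brain and an adjusted p = 0.0259 (limma). All 6 eye replicates lay below all 6 brain replicates. This call was lost without eye replicate 2, at -0.43 with an adjusted p = 0.0575, and without brain replicate 2, at -0.51 with an adjusted p = 0.0539.

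Eye minus heart was -0.69 for Rbpms, with means of -0.48 in eye and 0.20 in heart and an adjusted p = 0.00714 (limma). With each organ's own spread it was no longer called, at an adjusted p = 0.116. Without heart replicate 4 it was -0.47, with an adjusted p = 0.0146. Brain minus heart was -0.16 for Rbpms, with an adjusted p = 0.596, where 2.86% of genes were called. Gad1, Pcp2 and Scgn passed in none of the 3 differences. For Gad1 these were -0.24, 0.14 and 0.38, at adjusted p = 0.32, 0.558 and 0.165.

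Calb1 and Pax6 were left out of that fit because each had 2 heart replicates, so eye and brain were also fitted alone, which was decided once the values had been seen. In this fit 17.6% of 15499 genes were called. Calb1 had an eye minus brain difference of 0.37, with means of 0.26 in eye and -0.11 in brain, and lay at the threshold with an adjusted p = 0.04995 (limma). Pax6 had -0.17, with an adjusted p = 0.358, and Rbpms had -0.52, with an adjusted p = 0.00402. Brain and heart share their control mice, which these fits do not model.

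Other markers of the same cell types were set beside the members in eye. Together, 57 genes were listed for the 4 cell types, 29 were tested, and 4 were called higher and 4 lower. Of all genes tested in eye, 26.8% were called, 15.9% higher and 11.0% lower. Each eye list count below is to be read beside these shares. The median of the 29 was 0.01 against 0.03 for all genes. Without the members, 23 were tested, 3 were called higher and 1 lower, with a median of 0.02. The higher genes were Calb1, Rbpms2, Map1b and Sst, and the lower genes were Pax6, Gad1, Npy and Rbpms.

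Of 4 horizontal cell genes tested, Calb1 alone was called, and the list had a median of 0.04. Calb2, the calretinin gene, was put on both the horizontal and the amacrine list. It had 0.14 ± 0.24 (SD, n = 6) and an adjusted p = 0.307 (limma). Of 11 amacrine genes, 1 was called higher and 3 lower, with a median of -0.08. Npy, a neuropeptide gene, fell by 0.71 on the log2 scale and was lower in 6 of 6 replicates, with an adjusted p = 0.00175 (limma). Sst, the somatostatin gene, was 0.36 higher in the log2 ratio and higher in 6 of 6, with an adjusted p = 0.0175 (limma). Of the other neuropeptide genes on this list, Cck had 0.035 ± 0.18 and Tac1 0.36 ± 0.33 (SD, n = 6 each), and neither was called.

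Of 6 bipolar genes, 0 were called and the median was -0.0072. They included Prkca, the protein kinase gene of rod bipolar cells, at 0.023 ± 0.29 (SD, n = 6), and Gng13, a G protein subunit gene of ON bipolar cells, at 0.078 ± 0.20 (SD, n = 6). Pcp2 was the only bipolar gene at an unadjusted p under 0.05, with p = 0.0453 in limma's test. Of 10 ganglion cell genes, 2 were called higher and 1 lower, with a median of 0.03. Rbpms2, a close relative of Rbpms on the same list, was called in the opposite direction. It had 0.53 ± 0.22 (SD, n = 6) and an adjusted p = 0.00263 (limma). Map1b, a microtubule-associated protein gene of neurons, had 0.96 ± 0.28 (SD, n = 6) and an adjusted p = 0.000314 (limma).

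The other ganglion cell markers did not pass. Thy1, a surface protein gene, had 0.03 ± 0.22, Nefm, a neurofilament gene, 0.11 ± 0.16, and Sncg, the gamma-synuclein gene, -0.18 ± 0.19 (SD, n = 6 each). Rbpms was thus called lower, while 7 ganglion cell genes were not called and 2 were called higher. The difference between Rbpms and these genes was not tested.

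For Gad1 the GABA pathway was read as a list of synthesis, transport and receptor genes. Of 7 tested, 0 were called higher and 2 lower, with a median of 0.01. The second was Abat, which encodes the enzyme that breaks GABA down, at -0.34 ± 0.17 (SD, n = 6) with an adjusted p = 0.0111 (limma). Gad2, the other glutamate decarboxylase gene, had 0.01 ± 0.20, and Slc32a1, the vesicular transporter gene for GABA and glycine, had -0.08 ± 0.23 (SD, n = 6 each). Neither passed the test, and the difference between Gad1 and these genes was not tested.

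Calb1 and Scgn belong to the EF-hand calcium-binding proteins, of which 15 genes were tested, 2 called higher and 2 lower, with a median of -0.028. Pvalb, the parvalbumin gene of some amacrine and ganglion cells and of fast muscle, had 0.45 ± 0.12 (SD, n = 6). S100a6, found in epithelial and connective tissue, had -0.89 ± 0.34, and S100a1, found in muscle and glia, -0.38 ± 0.14 (SD, n = 6 each). Of 6 eye field transcription factor genes, Pax6 alone was called. Lhx2 had -0.12 ± 0.21 and Sox2 0.13 ± 0.18 (SD, n = 6 each).

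Pcp2, Calb1 and Gad1 are also genes of the cerebellar Purkinje cell. Of 7 genes of that list tested in eye, 3 were called higher and 1 lower, with Rora, a nuclear receptor gene, at 0.71 ± 0.13 (SD, n = 6). In brain, where Purkinje cells belong to the labelled organ, 7 were tested and 0 called by limma, 0 also at an unadjusted p under 0.05, with a median of -0.065. No gene of the 17 lists was called in brain or heart.

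Genes of other eye tissues moved in the same samples. Of 10 cornea and surface epithelium genes 9 fell, with a median of -1.03, and of 12 lens genes 11 rose and 1 fell, with a median of 0.56. Both tissues express Pax6. Of 6 smooth muscle genes, 1 was called higher and 4 lower, with a median of -0.38. Among them Actg2 had -0.70 ± 0.16 and Myh11 -0.53 ± 0.31, while Mylk had 0.41 ± 0.19 (SD, n = 6 each). Smooth muscle expresses Rbpms.

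For skeletal muscle 9 genes were tested, of which 8 fell and 1, Pvalb, rose, and the median was -0.73. Of 10 Mueller glia genes, 3 fell and 1 rose, with a median of -0.27. All 3 cone genes tested rose, with a median of 0.33, and so did all 6 rod genes, which were used to orient the ratios. Of 4 brain neuron genes tested 3 rose, with a median of 0.50, and of 6 cardiomyocyte genes 3 fell, with a median of -0.26. The part of these tissues in the values of Pax6, Rbpms, Gad1 and Calb1 was not tested.

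**Figure D4:**
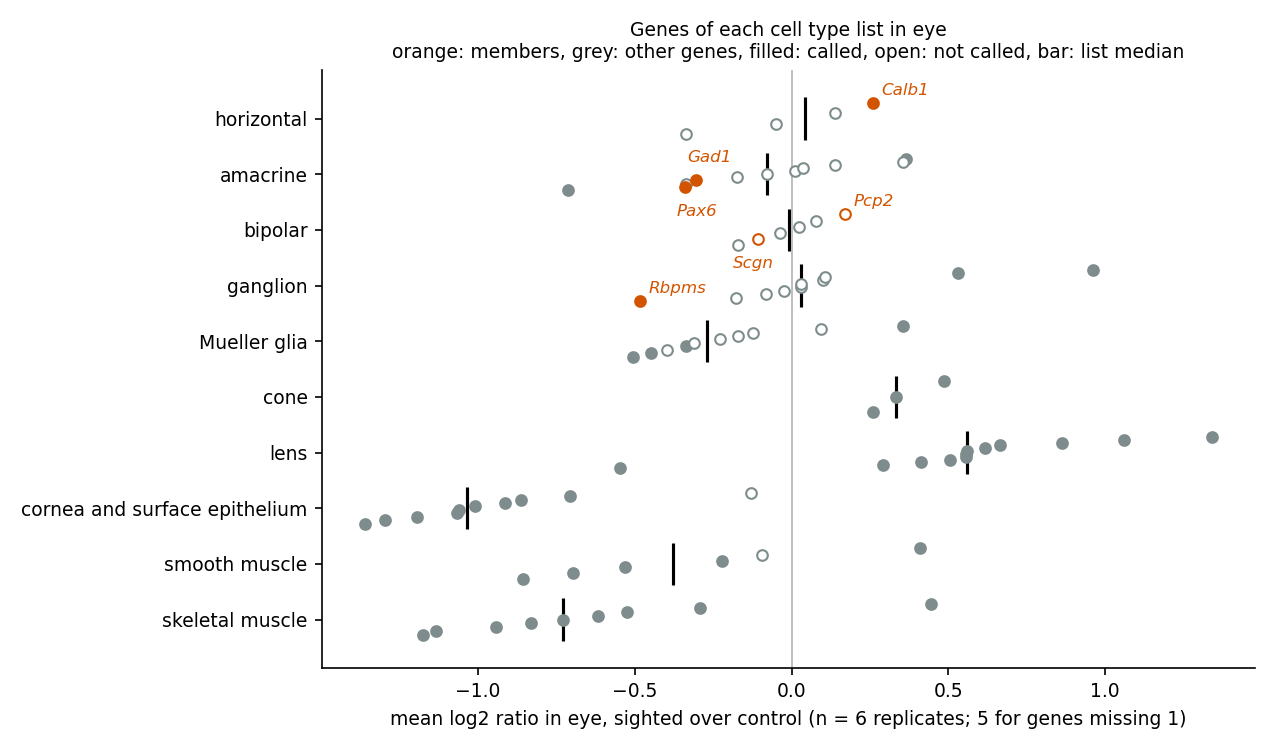
Each point is 1 gene, with its mean log2 ratio of sighted over control in eye on the horizontal axis and its cell type list on the vertical axis; filled points passed the test, orange points are the 6 members and black bars are list medians. The medians of the 4 inner retinal lists lie between -0.08 and 0.04, that of cornea and surface epithelium at -1.03 and that of lens at 0.56; rods, at 4.84, are not drawn.

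The named genes whose replicate values lay closest to each member were found by the root mean square difference in log2 ratio over all replicates of the 3 organs in which the member had a value. Calb1 was closest to Tmem259, at 0.167, and Cryzl1, at 0.186, over 14 replicates. Pax6 was closest to Rbfox2, at 0.149, and Extl1, at 0.15, over 14 replicates. Gad1 was closest to Fam102a, at 0.129, and Cd3g, at 0.197, over 16 replicates. None of these neighbours is on the marker lists.

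Pcp2 was closest to Gprasp1, at 0.208, and Prodh, at 0.215, over 15 replicates. Scgn was closest to Btbd6, at 0.163, and Brinp1, at 0.18, over 15 replicates. Rbpms was closest to Uhrf1bp1l, at 0.132, and Hivep2, at 0.173, over 16 replicates. Uhrf1bp1l averaged -0.58 in eye, 0.042 in brain and 0.17 in heart, beside -0.48, 0.041 and 0.20 for Rbpms. The neighbours were picked from 4080 to 7023 genes for being close, and most member values lie near 0, so closeness describes these arrays alone.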

How the data were processed

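The authors' deposited values were used, 1 log2 ratio per probe and array. Per the labels' protocols, cDNA from total RNA carried Cy3 or Cy5 through indirect labelling. Log base, direction, background correction and any scaling were not given in the sources used here. Log base 2 and Cy5 over Cy3 are readings of the values. Brain array 3 is labelled Cy5 in both channels and was read as sighted in Cy5. The source name of brain array 5 says only sighted.

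The members and gene lists were chosen with earlier results of these data known. The repeated top value above 15, 4170 values and 0 on the member probes, was set to missing. In all 5.88% of values were missing. The number of columns not mapped to a sample was 0. Of 20794 probes 12771 had 1 symbol, 0 had several and 8023 had none; unnamed probes stayed in the tests. Opposite-dye arrays were averaged per probe, then probes per gene. A gene could miss 1 replicate. Each organ's mean was tested against 0 with limma 3.58.1 in R 4.3.3 (lmFit, eBayes), two-sided, with Benjamini-Hochberg adjustment over all genes at 0.05. The dye term was fitted to single arrays, and organ differences in 1 fit. The steps were tested on simulated data. No 2 arrays correlated above 0.527 in size.

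The genes to name were the members, up to 3 called genes per list by smallest p, and 2 nearest genes per member. Lists other than the inner retinal, GABA, EF-hand, Purkinje and smooth muscle ones are given mainly by counts, which is less than the rule asked. Other named list genes were added after their values were seen. Alternatives were single arrays, single dyes, centring, scaling, other handling of missing values, single probes and each replicate left out.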

Additional observations from a re-analysis of the deposited data

Results flagged for a closer look

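The value of Rbpms in eye replicate 2 was -0.973, and its gap to the next replicate was large for a group of 6. Both probes were lowest in that replicate, and its array with sighted RNA in Cy3 read -1.42. The value of Rbpms in heart replicate 4 was 0.856, with the other 3 replicates between -0.042 and 0.007. That replicate includes the array with 61.6% of values missing, which read 0.293 for Rbpms. Its other array, with 10.1% missing, read 1.418. The part of missing values in this result was not tested. In all, 14 groups of a gene in an organ were examined this way, and chance marks about 1 in 20.

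The response of Rbpms differed between organs by a test of the difference itself, with an eye minus brain value of -0.5249 and an eye minus heart value of -0.688. In the fit of eye and brain alone, Calb1 had an eye minus brain value of 0.3687. The adjusted p of the Calb1 difference, 0.04995 by limma, lay at the threshold.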

How the results depend on the processing

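Of 535 member values under other settings, 486 kept direction and side of the threshold. Another 23 changed sign with neither value called, and 22 were no longer called. In addition 2 became called and 2 changed the sign of a called value. These values also cover dye terms, organ differences, and brain and heart, where no member was called in the main tests. Among members called in eye, Calb1 stayed called under 12 of 17 other settings, Gad1 under 13 of 19 and Rbpms under 18 of 19. Pax6 was called under 12 of 17, including the reversal below. With sighted RNA in Cy5 only and arrays as deposited, Pax6 in eye reversed to 0.324 and was called. Centred, these arrays averaged 0.046 for Pax6. In Cy3 only, Calb1 in eye was no longer called and lay at about 0, at -0.0108 with an adjusted p = 0.951 (limma). Of its Cy3 arrays, 4 of 6 lay above 0. On centred arrays Calb1 averaged 0.20 in Cy3, with 5 of 6 above 0. With every array on its own and no dye term, 1 member was called in eye, beside 4. With a dye term 4 were called, and also 4 with the pair of arrays as a random block added. Leaving out 1 replicate gave 1 to 3. In brain 1 member, Pax6, was called with Cy3 only. The causes of these changes were not tested.

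Of all genes in eye, 4259 were called, 2654 with every array on its own and no dye term, and 6580 with Cy5 only. Single arrays with a dye term called 4337, and 4712 with the pair of arrays as a random block added. In brain 1 was called, 3 with every array on its own, 6 with a dye term, 6 with the pair of arrays as a random block, 5 without array 3, 736 with Cy5 only, 1327 with Cy3 only, 2 with scaled arrays, 0 with ceiling values kept, 2 with every replicate needed, 2 without the genes of most spread, and 0 to 1 with a replicate left out. The eye dye term was called for 8777 genes, and for 486 after centring.

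For eye minus brain 1564 genes were called, 2438 with each organ's own spread and 2723 with eye and brain alone. For eye minus heart 2844 were called, and 573 with own spread. For brain minus heart 357 were called, 0 with own spread, 2 with the replicate number as a block, and 63 to 965 with a replicate left out. Same-numbered replicates of different organs had mean correlations of -0.0053 for eye and brain, -0.015 for eye and heart and 0.0068 for brain and heart, so the number is not read as a pairing. With the replicate block Rbpms remained called in eye minus brain and eye minus heart, at adjusted p = 0.0366 and 0.0118 (limma). Signal over background is unknown for these ratios, and heart values rest on few arrays.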
